A study of Mus musculus with 16 samples.

Results

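The T cell identity genes Cd3g, Cd3d, Cd3e, Cd5 and Cd6 were followed through all H3K27ac and DNase islands that touched 2 stretches of the mouse genome. The first, called the Cd3 window here, starts at 44770001 on chromosome 9 (build mm9), is 80 kb long and is assigned to Cd3g, Cd3d and Cd3e. The second, the Cd5-Cd6 window, starts at 10780001 on chromosome 19, is 150 kb long and is assigned to Cd5 and Cd6. The windows were set by position. They held 278 of the 469755 islands in the 16 deposited lists, of which 134 were H3K27ac islands (45 in the Cd3 and 89 in the Cd5-Cd6 window) and 144 were DNase islands (64 and 80).

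An island is a stretch of 200-bp steps enriched for reads, joined across short gaps. H3K27ac, acetylation of histone H3 at lysine 27, is a mark of active promoters and enhancers. DNase-seq reads out open chromatin, where regulatory proteins can reach the DNA. Cd3g, Cd3d and Cd3e encode the γ, δ and ε chains of CD3, which assemble with the T cell receptor and carry its signal into the cell through their cytoplasmic motifs. Cd5 and Cd6 encode related scavenger receptor proteins of the T cell surface that tune the strength of T cell receptor signalling, CD5 mainly as a brake. All 5 genes are expressed by most mature T cells, and their products are in wide use as T cell markers. Bcl11b, the gene deleted in this study, encodes a zinc finger transcription factor that is required for T lineage commitment.

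The cells were CD4 T cells of C57BL/6 mice with floxed Bcl11b alleles and CreERT2, a Cre recombinase that acts after exposure to 4-hydroxytamoxifen (4-OHT). By the labels the cells were naive, but the sort is given as CD4+CD44high, a gate usually used for activated cells. Early cells had 4 days of culture under conditions that drive the T helper 2 (Th2) fate, and late cells had such a culture of 4 days, a rest of 1 day in medium with IL-2, and a second Th2 culture of 4 days. The knockout (KO) received 4-OHT in the early culture, or for late cells in the second culture only, and the wild type (WT) received none. Late KO cells thus went through the first culture without 4-OHT. Comparisons of late with early KO, and of the KO effect between stages, therefore mix time in culture with the timing of 4-OHT. All groups carried the floxed alleles and CreERT2, so Bcl11b deletion and exposure to 4-OHT cannot be told apart. The promoter that drives CreERT2 is not given in the sources used here. Each assay had 2 libraries in each of 4 groups, early WT, early KO, late WT and late KO. Nothing in the labels ties replicates to separate cultures or animals, so p-values measure the spread between these libraries, which may be technical.

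The promoters of the genes are shown as a reference for what the windows hold. RefSeq promoter sequences were at hand for 4 of the 5 genes, all but Cd6, on the build GRCm38.p6. That is not the build of the islands, so promoters and islands were not placed on each other. On GRCm38.p6 the protein-coding neighbours run Ube4a, Cd3g, Cd3d, Cd3e, Mpzl2 on chromosome 9 and Vps37c, Cd5, Cd6, Slc15a3 on chromosome 19. Whether the windows reach into the outer neighbours was not determined, so islands near the window ends may belong to those genes. Cd3g and Cd3d are next to each other and are transcribed away from each other. The 250 bases before the start of each gene follow, 5′ to 3′ on the strand of the gene, at chr9:44980432-44980681 (minus strand) for Cd3g, chr9:44981536-44981785 (plus) for Cd3d, chr9:45009612-45009861 (minus) for Cd3e and chr19:10738975-10739224 (minus) for Cd5. Capitals mark matches, on either strand, to the letters given after the sequences.
Cd3g: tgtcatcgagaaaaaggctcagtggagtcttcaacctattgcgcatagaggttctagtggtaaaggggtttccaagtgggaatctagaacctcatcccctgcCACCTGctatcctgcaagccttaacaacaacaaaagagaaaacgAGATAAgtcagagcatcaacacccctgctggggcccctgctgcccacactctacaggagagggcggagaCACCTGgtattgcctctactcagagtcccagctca
Cd3d: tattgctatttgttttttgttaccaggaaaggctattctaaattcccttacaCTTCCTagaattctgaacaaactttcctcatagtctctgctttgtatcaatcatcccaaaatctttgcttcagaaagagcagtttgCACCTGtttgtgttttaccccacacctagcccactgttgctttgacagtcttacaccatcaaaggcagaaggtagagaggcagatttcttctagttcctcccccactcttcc
Cd3e: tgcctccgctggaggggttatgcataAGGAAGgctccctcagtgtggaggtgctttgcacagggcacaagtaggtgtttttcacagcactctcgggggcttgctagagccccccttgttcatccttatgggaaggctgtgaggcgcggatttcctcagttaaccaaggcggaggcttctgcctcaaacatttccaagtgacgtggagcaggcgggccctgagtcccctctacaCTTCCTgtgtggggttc
Cd5: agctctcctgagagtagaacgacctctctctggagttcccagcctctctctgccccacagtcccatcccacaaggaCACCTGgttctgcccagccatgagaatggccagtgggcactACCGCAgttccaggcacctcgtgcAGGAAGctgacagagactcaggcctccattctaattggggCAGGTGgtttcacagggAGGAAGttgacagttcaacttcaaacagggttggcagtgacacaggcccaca
The letters searched for GATA factors were AGATAA as well as AGATAG, further TGATAA as well as TGATAG. For RUNX factors they were TGTGGT as well as TGCGGT, for ETS factors AGGAAG as well as CGGAAG, for E-boxes CACCTG as well as CAGCTG, and for the TATA box TATAAA. No matches in these promoters overlapped. A GATA match stood at -104 to -99 in Cd3g alone among the 4, and 26.5% of the 32851 promoters in the RefSeq table hold one in the same span. E-box letters occurred in Cd3g and Cd5 (2 matches each) and in Cd3d (1 match), against 27.7% of all promoters with at least 1. ETS letters occurred in Cd3e and Cd5 (2 each) and in Cd3d (1), against 39.2%, and RUNX letters in Cd5 (1), against 18.6%. None of the 4 held TATAAA in this span, which 12.4% of all promoters hold. A match describes the letters only, and no binding was measured here.

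The lists of the series differed in length between libraries. A list for H3K27ac had between 26548 and 32112 islands over 101 to 112 Mb, and one for DNase had between 17397 and 39736 over 25.9 to 66.8 Mb. Late KO had the shortest DNase lists, at 26.1 ± 0.21 Mb against 48.5 ± 5.4 Mb in late WT (SD, n = 2 per group). Read counts are unknown, so an absent island shows only that the list does not hold it. Less of a mark in every cell and fewer cells with the mark also give the same lists.

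Both windows carried strong H3K27ac in every library, whatever the genotype or stage. The highest scoring H3K27ac island of the Cd3 window ranked between 180 and 422 in its list, at the 98.4 to 99.4 percentile of the authors' island scores. In the Cd5-Cd6 window the highest island stood at the 96.9 to 99.1 percentile. Islands of the 8 H3K27ac libraries that overlapped or touched merged into 15 regions, and 8 of these (3 in the Cd3 and 5 in the Cd5-Cd6 window) were held by all 8 libraries. Genome-wide 51.2% of merged H3K27ac regions were held by all 8, so the share in the windows was near that of the genome. Counted by length, 44.3% of the Cd3 steps and 51.6% of the Cd5-Cd6 steps covered in any H3K27ac library were covered in all 8, against 35.7% of such steps genome-wide. For DNase the shares were 23.2% and 10.5%, against 12.1%.

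The Cd3 window had 3 constant blocks of H3K27ac. The widest lay at 44778001 to 44796200, where every library held an island of 10.6 to 13.0 kb. That island had the top score of the window in all 8 libraries (mean percentile 99.1). Early WT replicate 1 also held a weak island there, at 44778001 to 44783400 (percentile 3.63), which brought its sum to 16.4 kb. The near border of the block comes from that weak island alone. A narrower block at 44813201 to 44820000 had 6.6 and 6.0 kb in the early WT libraries, 5.4 and 5.6 kb in the early KO libraries, 4.6 and 4.8 kb in the late WT libraries and 4.0 and 4.0 kb in the late KO libraries (mean percentile 92.4). The third was at 44771401 to 44776000 (mean percentile 76.3). It had 4.4 and 3.6 kb in the early WT libraries and 3.2 and 3.2 kb in the early KO libraries. Late cells had 4.2 and 3.8 kb in WT and 2.6 and 3.2 kb in KO. Every WT value lay above every KO value, an order whose share among all regions was not counted. Its bin, at 44770001 to 44780000, also holds part of the weak island of early WT replicate 1. That bin passed in no comparison of the limma fit described next. Its log2 change in early KO was -0.56, or -0.90 without early WT replicate 2. At the second block early WT was widest and late KO narrowest, and the 10-kb bin that holds it, at 44810001 to 44820000, did not pass in any comparison of the limma fit described next. It passed as lower under some alternatives, from early to late WT without centring (adjusted p = 0.0103) or with the upper 50% of each list by score (0.0224), from early to late KO in both settings (0.0115 and 0.0225) and without early WT replicate 1 (0.0499), and in KO averaged over the stages in both settings (0.0317 and 0.0394).

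**Figure D1:**
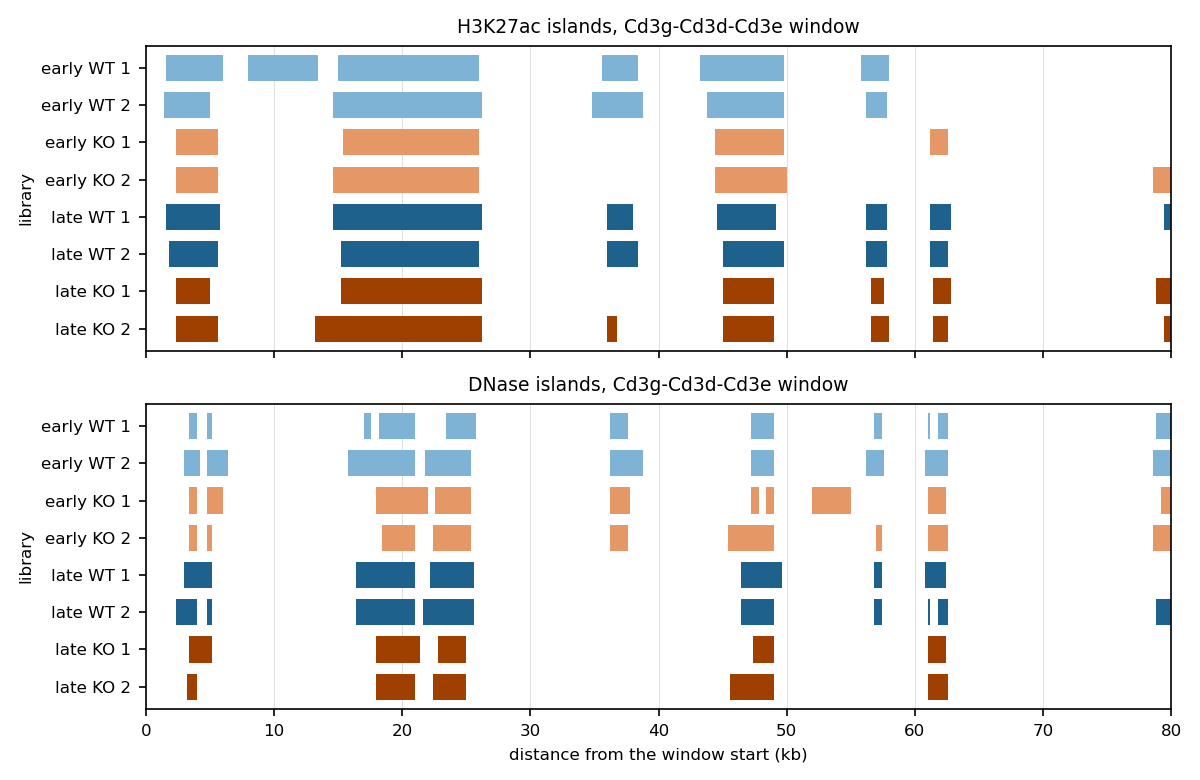
Islands of each library (rows, 2 per group) in the Cd3 window, plotted as bars by distance from the window start in kb, H3K27ac above and DNase below. The blocks near 20 and 45 kb are present in all libraries, while the H3K27ac island between 30 and 40 kb is in all 4 WT libraries and in only 1 of 4 KO libraries, and the DNase island there is in all 4 early and no late library.

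The window also held weaker islands, and 2 of those present in early WT were missing from early KO cells. The island at 44804801 to 44808800 covered 2.8 and 4.0 kb in the early WT libraries, 2.0 and 2.4 kb in the late WT libraries, 0 and 0 kb in the early KO libraries, and 0 and 0.8 kb in the late KO libraries. All 4 WT values lay above all 4 KO values, and the 0.8-kb island of late KO replicate 2 scored near the bottom of its list (percentile 0.0272). Presence in all 4 WT and at most 1 KO library is a pattern of 0.894% of all H3K27ac regions. The WT islands were weak as well, at percentiles 24.3 and 30.3 in early and 7.2 and 21.2 in late cells. The island at 44825801 to 44828000 covered 2.2 and 1.6 kb in the early WT libraries and was listed at 0 in both early KO libraries. In late cells it was held by all 4 libraries, with 1.6 and 1.6 kb in WT and 1.0 and 1.4 kb in KO. Both early WT and neither early KO library thus held 2 of the 15 merged regions, where 3.79% of all H3K27ac regions show that pattern, and no region of the windows showed the opposite one (9.36% genome-wide).

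The test of these differences was a fit across all 10-kb bins of the genome with limma, on the kb covered per bin, with Benjamini-Hochberg adjustment over the 39126 bins tested for H3K27ac. A bin with an adjusted p under 0.05 was called, and 21 of the 23 bins of the windows could be tested. In early cells 3 of these 21 differed between KO and WT, 2 lower and 1 higher, against 14.6% of all bins (5.43% lower, 9.17% higher). The median log2 change was -0.04 over the 21 bins and -0.03 over all bins. H3K27ac fell in the Cd3 bin at 44820001 to 44830000, from 1.9 ± 0.42 kb in the early WT libraries to 0 kb in the early KO libraries (SD, n = 2 per group, limma adjusted p = 0.00138). It also fell in the bin at 44800001 to 44810000, from 3.4 ± 0.85 kb to 0 kb (SD, n = 2 per group, limma adjusted p = 0.0106). With the upper 50% of each list by score neither of these 2 bins could be tested. All H3K27ac islands in them stood at or under the 45.2 percentile of their lists, so both falls rest on weak islands. The first call held in all 13 alternatives in which its bin could be tested (log2 change between -2.43 and -0.987). The second was lost without early WT replicate 2 (adjusted p = 0.058), early KO replicate 1 (0.0661) or early KO replicate 2 (0.0607).

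In late cells 0 of the 21 bins differed between KO and WT by the same test, against 6.75% of all bins, and 3 had an unadjusted p under 0.05, all lower in KO. The bin at 44800001 to 44810000 held 2.2 ± 0.28 kb in the late WT libraries and 0.4 ± 0.57 kb in the late KO libraries (SD, n = 2 per group, limma adjusted p = 0.133). Without late KO replicate 2, the library with the 0.8-kb island, it passed (adjusted p = 0.0136), as it did with all lists cut to equal length (adjusted p = 0.00137). A bin of the Cd5-Cd6 window, at 10880001 to 10890000, held 2.4 and 0 kb in the late WT libraries and 2.8 and 1.6 kb in the late KO libraries. Its log2 change in late KO was 1.09 (limma adjusted p = 0.644). Without late WT replicate 1 only the late WT library at 0 kb is left, and the change was 2.31. In that setting the bin also changed by -2.89 from early to late WT, and the KO effect by 2.83 between the stages. Averaged over both stages, a comparison added after the data were seen, the Cd3 bin at 44800001 to 44810000 fell in KO (log2 change of kb + 0.5 -2.38, SE 0.35, limma adjusted p = 0.00598), as did the bin at 44820001 to 44830000 (-1.32, SE 0.17, limma adjusted p = 0.00334). These 2 of 21 were the bins called in that comparison, which called 18.2% of all bins (7.39% lower). In the bin at 44820001 to 44830000 late WT held 1.6 ± 0.0 kb and late KO 1.2 ± 0.28 kb (SD, n = 2 per group, limma adjusted p = 0.62). That bin rose from early to late KO (limma adjusted p = 0.0055), a comparison that shares the early KO libraries with the first one, and 3 of the 21 bins were called in that comparison (9.6% of all bins). The KO effect on it differed between the stages (interaction, limma adjusted p = 0.017), the only such bin of the 21, against 10.1% of all bins. The interaction was lost with a pseudocount of 2 kb and without early WT replicate 1, either early KO library or either late WT library (adjusted p between 0.0504 and 0.0643).

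The far end of the Cd3 window held 2 weak H3K27ac islands that were absent from early WT. The island at 44831201 to 44832800 covered 1.4 and 0 kb in the early KO libraries, 1.6 and 1.4 kb in the late WT libraries and 1.4 and 1.2 kb in the late KO libraries. The one at 44848601 to 44851400, which crosses the window border, covered 0 and 2.8 kb in the early KO libraries, 1.8 and 0 kb in the late WT libraries and 2.6 and 2.0 kb in the late KO libraries. All of these islands stood at or under the 18.3 percentile of their lists, and no bin there was called. The bin at 44830001 to 44840000 missed the threshold from early to late WT (limma adjusted p = 0.0792) and passed without early KO replicate 1 or 2 (adjusted p = 0.0016 and 0.00159). Without early KO replicate 2, the library with no island at 44831201, it also passed as higher in early KO than early WT (adjusted p = 0.0055), as higher in KO averaged over the stages (0.0121) and in the interaction (0.0177), and without early KO replicate 1 it rose from early to late KO (0.00889). With all libraries none of these passed (adjusted p between 0.435 and 0.639).

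Open chromatin in the Cd3 window was in part held at the same places in all groups. The 8 DNase libraries gave 8 merged regions, of which 4 were in all 8 libraries and the other 4 in no late KO library, while in both windows together 8 of 21 were, against 27.3% of all DNase regions. The region at 44785801 to 44795800 lay inside the widest acetylated block, covered 5.6 to 8.8 kb and had the highest DNase scores of the window in each library (percentiles 87.7 to 94.5). The other constant sites were at 44772401 to 44776400 (0.8 to 2.8 kb, mean percentile 83.2), 44815401 to 44819600 (1.2 to 3.6 kb, mean percentile 71.6) and 44830801 to 44832600 (mean percentile 49.3). At the last of these DNase covered 1.0 to 1.8 kb in all 8 libraries, although 3 of the 4 early H3K27ac libraries held no island there.

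The site at 44806201 to 44808800, under the H3K27ac island that was absent from early KO, was open in early cells of both genotypes. DNase islands covered 1.4 and 2.6 kb in the early WT libraries, 1.6 and 1.4 kb in the early KO libraries, and 0 kb in all 4 late libraries. The groups split by stage without overlap, whereas H3K27ac at the same place split by genotype. These early DNase islands were weak, at percentiles 13.9 and 33.1 in the WT libraries and 20.3 and 24.6 in the KO libraries. All 4 ranked beyond 17397, the number of islands in the shortest DNase list. Their bin could not be tested with lists cut to equal length or to their upper part by score. The split by stage was thus not tested apart from list length. All 4 early and no late library is a pattern that 1.12% of all DNase regions show, and this was the only such region of the 21. In the fit on 37586 DNase bins, 18 of the 23 bins of the windows were tested. The Cd3 bin at 44800001 to 44810000 fell from early to late WT, from 2.0 ± 0.85 kb to 0 kb (SD, n = 2 per group, limma adjusted p = 0.0318). It was the 1 bin of the 18 called in that comparison (2.71% of all bins, 2.12% lower). In KO the same bin went from 1.5 ± 0.14 kb to 0 kb (SD, n = 2 per group, limma adjusted p = 0.0516), which did not pass, but passed without centring (adjusted p = 0.029). The WT call was lost in 9 of 12 alternatives, among them leaving out either early WT, late WT or late KO library (adjusted p between 0.114 and 0.413). Between early KO and early WT the DNase kb of that bin differed by a log2 change of -0.03 (SE 0.37, limma adjusted p = 0.994).

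The DNase site at 44826201 to 44827600, under the other H3K27ac island absent from early KO, was small. It covered 0.6 and 1.4 kb in the early WT libraries, 0 and 0.4 kb in the early KO libraries, 0.6 and 0.6 kb in the late WT libraries and 0 kb in both late KO libraries. All 4 WT values lay above all 4 KO values, and 7.26% of all DNase regions were in all 4 WT and at most 1 KO library. The bin that holds it was not called (limma adjusted p = 0.828 in early and 0.642 in late cells), and it also held a 3.0-kb island found in early KO replicate 1 alone. DNase in the border region at 44848601 to 44852000 covered 2.6 and 2.8 kb in the early WT libraries, 2.8 and 3.0 kb in the early KO libraries, 0 and 2.6 kb in the late WT libraries and 0 kb in both late KO libraries.

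The Cd5-Cd6 window was the more heavily acetylated stretch, and most of its islands were present in every library. One block ran from 10802801 to 10839600 and covered 28.4 to 34.4 kb in each of the 8 libraries (mean percentile 98.0), the top-scoring region of the window. The next 2 were at 10885801 to 10907800 (15.4 to 20.4 kb, mean percentile 94.7) and at 10850201 to 10867400 (11.0 to 16.4 kb, mean percentile 91.4). Regions at 10912001 to 10919600 and 10788401 to 10792600 were also in all 8 libraries, the latter with low scores (mean percentile 17.2). The other 3 of the 8 regions were each missing from 1 to 3 libraries and scored low (mean percentiles 14.7 to 24.0). At 10780001 to 10786200 H3K27ac covered 3.6 and 0 kb in the early WT libraries, 3.6 and 3.4 kb in the early KO libraries, 3.0 and 2.0 kb in the late WT libraries and 4.4 and 3.8 kb in the late KO libraries. At 10792801 to 10797000 it covered 1.8 and 4.0 kb in the early WT libraries, 1.4 and 3.2 kb in the early KO libraries, 0 and 1.6 kb in the late WT libraries and 0 kb in both late KO libraries. At 10845601 to 10849000 it covered 0 and 2.2 kb in the early WT libraries, 2.2 and 3.2 kb in the early KO libraries, 3.0 and 1.6 kb in the late WT libraries and 0 and 2.2 kb in the late KO libraries. Of these, the island at 10792801 was absent from late KO, and the libraries missing the other 2 did not follow a group.

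**Figure D2:**
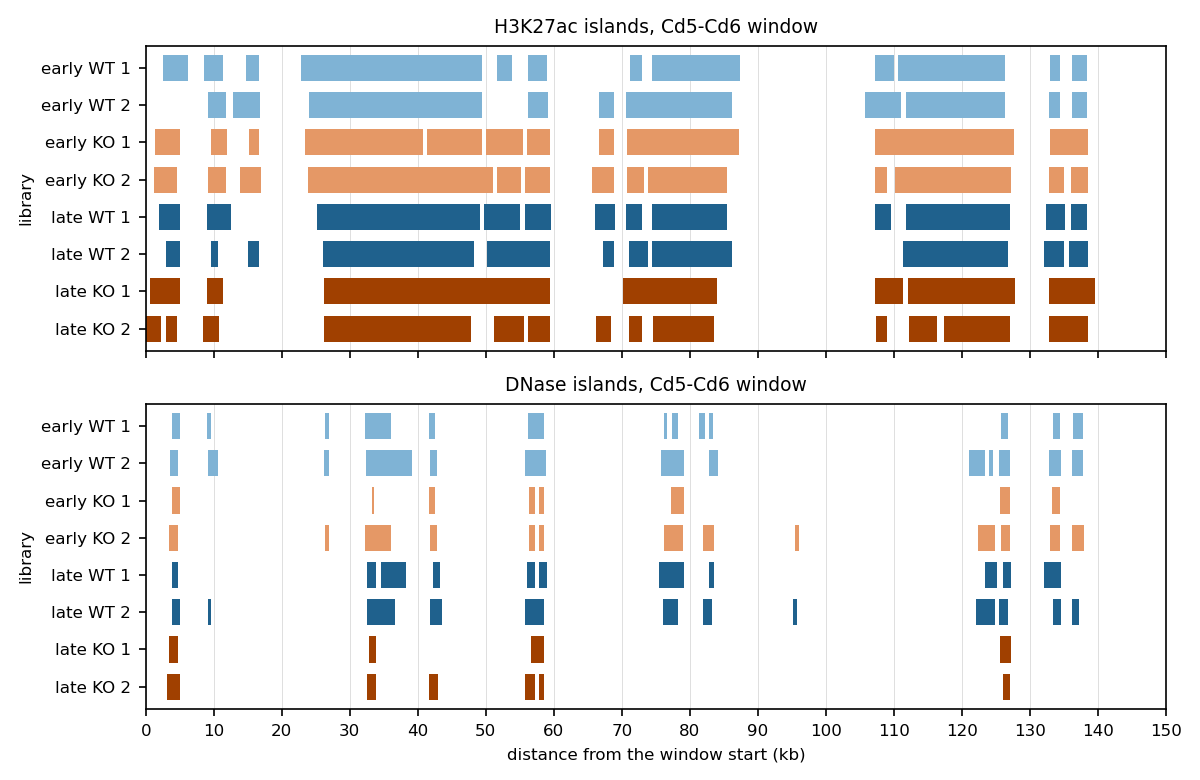
Islands of each library (rows, 2 per group) in the Cd5-Cd6 window, plotted as bars by distance from the window start in kb, H3K27ac above and DNase below. The large H3K27ac blocks are in all 8 libraries, the stretch from 50 to 60 kb is filled less in early WT than in the other groups, and the late KO DNase rows are the sparsest.

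Within the widest block, early WT cells had a gap that the other groups filled. The bin at 10830001 to 10840000 held 5.0 and 3.0 kb of H3K27ac in early WT, 8.8 and 8.2 kb in the early KO libraries, 8.8 and 9.2 kb in the late WT libraries and 9.4 and 7.6 kb in the late KO libraries. Both early WT libraries lay below the other 6, an order whose share among all bins was not counted. H3K27ac in this bin rose in early KO over early WT by a log2 change of 0.996 (SE 0.21, limma adjusted p = 0.0285), and from early to late WT by 1.16 (SE 0.21, limma adjusted p = 0.0147). These comparisons share the early WT libraries. In late cells KO and WT differed by -0.13 (SE 0.21, limma adjusted p = 0.948), and the interaction did not pass (-1.12, SE 0.30, limma adjusted p = 0.0862), but passed without early WT replicate 1 or 2 (adjusted p = 0.0163 and 0.0338) and with lists cut to equal length (0.0455). In late KO replicate 1 a single 33.2-kb island joined the whole stretch. The early KO call was lost with the upper 50% of each list by score (adjusted p = 0.491) and without either early KO library, late WT replicate 2 or either late KO library (adjusted p between 0.0524 and 0.122). The call with time was lost with the upper 50% of each list (adjusted p = 0.468) and without either late WT library (0.0619 and 0.0800).

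Next to the near end of the window, 2 neighbouring bins had less H3K27ac in late than in early KO cells. The bin at 10800001 to 10810000 held 7.2 and 6.0 kb in the early WT libraries, 6.6 and 6.2 kb in the early KO libraries, 4.8 and 4.0 kb in the late WT libraries and 3.8 and 3.8 kb in the late KO libraries. All 4 late libraries lay below all 4 early ones, and the share of all bins with such a split was not counted. The fall from early to late KO passed (log2 change -0.64, SE 0.13, limma adjusted p = 0.0322). The bin at 10790001 to 10800000 went from 4.2 ± 1.1 kb in the early KO libraries to 1.1 ± 0.42 kb in the late KO libraries (SD, n = 2 per group, log2 change -1.52, SE 0.30, limma adjusted p = 0.0286). Early WT had 4.5 ± 1.8 kb there and late WT 2.4 ± 0.28 kb (SD, n = 2 per group). Both calls were lost with the replicate block (adjusted p = 0.0501 and 0.0516 in that order) and without either early KO library, late WT replicate 2 or either late KO library. Over these omissions the adjusted p was between 0.0511 and 0.176. The second call was also lost without late WT replicate 1 (adjusted p = 0.0666), without centring (0.0657) and with lists cut to equal length (0.261). From early to late WT the first bin had a log2 change of -0.49 (SE 0.13, limma adjusted p = 0.0548), which did not pass, but passed without centring, with a pseudocount of 2 kb or without early WT replicate 2 (adjusted p between 0.0399 and 0.049). The first bin of the window, at 10780001 to 10790000, held 5.0 and 0.8 kb in the early WT libraries, 4.0 and 4.2 kb in the early KO libraries, 4.0 and 2.4 kb in the late WT libraries and 5.4 and 5.4 kb in the late KO libraries. It was not called, and without early WT replicate 1 it passed as higher in late than in early WT (limma adjusted p = 0.0291), in early KO than in early WT (0.0179) and in KO averaged over the stages (0.0147).

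At the far end H3K27ac was higher in late than in early WT. The bin at 10910001 to 10920000 held 3.6 and 3.8 kb of H3K27ac in early WT, 5.6 and 4.8 kb in the early KO libraries, 5.2 and 5.8 kb in the late WT libraries and 6.8 and 5.8 kb in the late KO libraries. Early WT was lowest, below the other 6 libraries, and how common this order is among all bins was not counted. The rise from early to late WT was called (log2 change 0.56, SE 0.13, limma adjusted p = 0.0377, or 3.10 and adjusted p = 0.0104 with the upper 50% of each list), and with the bin at 10830001 it made 2 of 21 bins called in that comparison, both higher, against 16.3% of all bins (9.54% higher). Early KO exceeded early WT by 0.40 (SE 0.13, limma adjusted p = 0.116), which did not pass, but passed with the upper 50% of each list (adjusted p = 0.0119). The call with time was lost with the replicate block (adjusted p = 0.0698) and without either early WT library, late WT replicate 2 or either late KO library (adjusted p between 0.0532 and 0.161).

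DNase islands in the Cd5-Cd6 window were few in late KO cells. Of 13 merged DNase regions 4 were in all 8 libraries, and 8 were held by no late KO library, against 1 held by no late WT library (3 of 21 in both windows, 26.5% genome-wide). In both windows together 12 of 21 regions were held by no late KO library, and 59.2% of all DNase regions of the genome were absent from late KO in the same way, so the share in the windows was near the background. The constant sites were at 10783201 to 10785000, 10812201 to 10819200, 10835801 to 10839000 and 10905401 to 10907200. The site at 10835801 to 10839000 lay inside the widest H3K27ac block and was the strongest open site of the window on average. Its score percentiles were 98.6 and 98.2 in early WT, 94.2 and 96.1 in early KO, 89.1 and 97.1 in late WT and 75.0 and 62.0 in late KO, each within a list of its own length. It covered 1.6 to 3.0 kb in every library. The wide site at 10812201 to 10819200 covered 3.8 and 6.8 kb in the early WT libraries, 0.4 and 3.8 kb in the early KO libraries, 4.8 and 4.0 kb in the late WT libraries and 1.0 and 1.2 kb in the late KO libraries. Late KO and early KO replicate 1, the 3 shortest DNase lists by Mb, were lowest there. The weaker sites were present in part of the libraries. Both early WT and neither early KO library held 1 of the 21 regions, at 10789001 to 10790600 (8.71% of all regions), and both late WT and neither late KO library held 5 (16.3%). The sites at 10806201 to 10807000, 10861401 to 10864200, 10901001 to 10905200 and 10916201 to 10918000 covered 0.6 to 3.0 kb where they were listed, and none was in late KO. The site at 10821601 to 10823600 was in 7 libraries and missing from late KO replicate 1, and the one at 10875201 to 10876000 was in 1 early KO and 1 late WT library.

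Late KO cells lacked the DNase islands at 10855401 to 10859200 and 10912001 to 10914600, which the other 6 libraries held. The bin at 10850001 to 10860000 had 1.2 and 3.4 kb in the early WT libraries, 2.0 and 2.8 kb in the early KO libraries, 3.8 and 2.2 kb in the late WT libraries and 0 kb in both late KO libraries (KO against WT in late cells, limma adjusted p = 0.0323). The bin at 10910001 to 10920000 had 2.4 and 3.4 kb in the early WT libraries, 1.2 and 3.2 kb in the early KO libraries, 2.6 and 2.2 kb in the late WT libraries and 0 kb in both late KO libraries (limma adjusted p = 0.0342). H3K27ac covered both places in all 8 libraries. These 2 of the 18 bins, both lower, were called in late KO, against 2.16% of all bins (1.81% lower), and the same 2 bins fell from early to late KO (limma adjusted p = 0.0297 and 0.0323, 2.45% of all bins, 2.25% lower). These comparisons share the late KO libraries. The falls from early to late KO were lost in 10 and 11 of 14 alternatives, among them a pseudocount of 2 kb (adjusted p = 0.110 and 0.118), the replicate block (0.0658 and 0.0662) and leaving out any early WT, early KO or late KO library (0.0571 to 0.125). The late KO lists covered 26.1 Mb, and with all DNase lists cut to equal length the first bin did not pass (adjusted p = 0.604). Leaving out any early WT, late WT or late KO library, a pseudocount of 2 kb or the replicate block ended both calls against WT. In early cells 0 of the 18 bins differed between KO and WT, also at an unadjusted p under 0.05 (limma, 1.23% of all bins called). Averaged over both stages 0 of the 18 were called, with 3 at an unadjusted p under 0.05 (limma, 1.55% of all bins called). The interaction called 0 bins in the windows and 0 in the genome, with 2 of the 18 at an unadjusted p under 0.05, both lower.

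**Figure D3:**
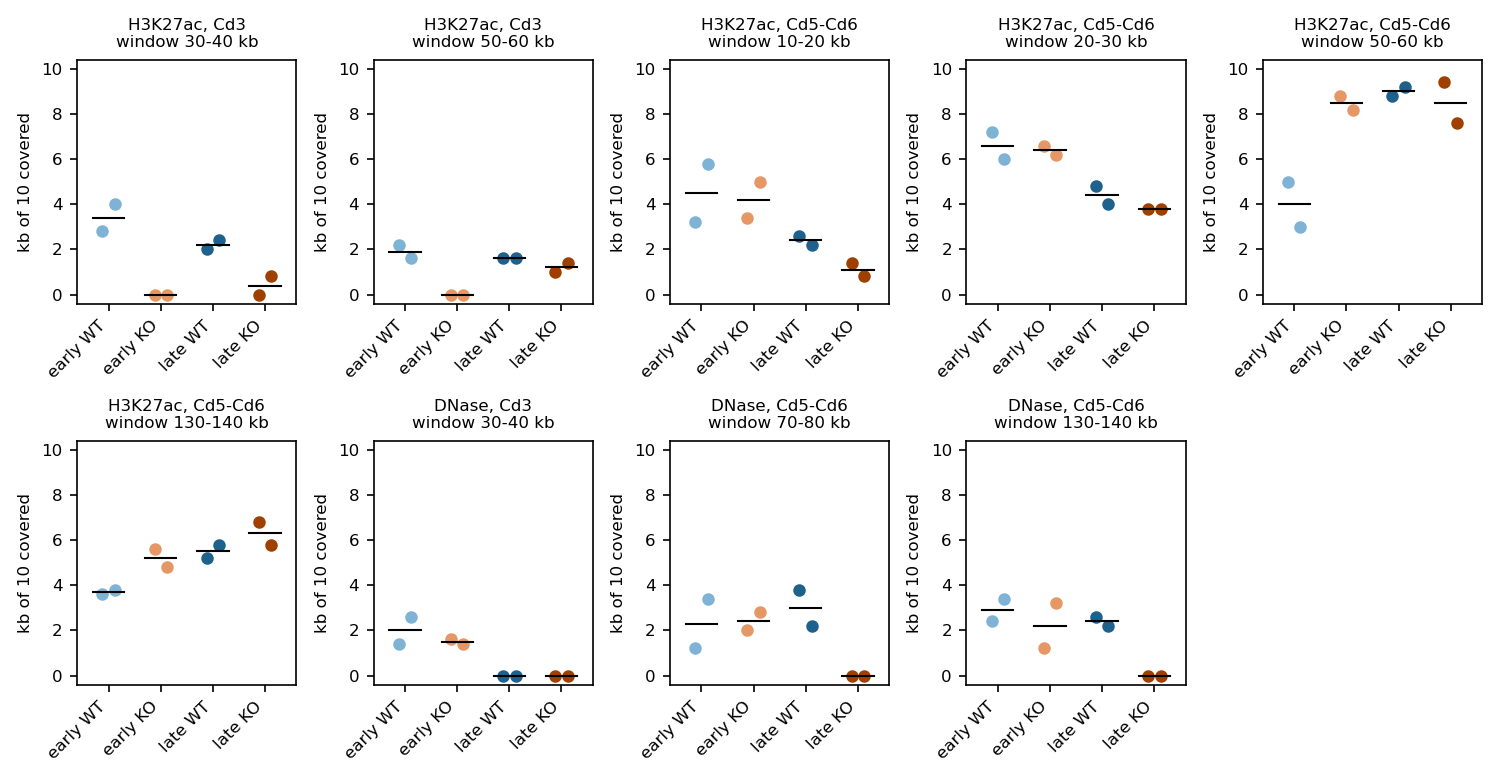
Kb of a 10-kb bin covered by islands, for the 9 combinations of bin and assay that were called in at least 1 comparison, by group. Points are libraries and lines are group means (n = 2). H3K27ac at 30 to 40 kb and 50 to 60 kb of the Cd3 window is at 0 in both early KO libraries, and DNase at 70 to 80 kb and 130 to 140 kb of the Cd5-Cd6 window is at 0 in both late KO libraries.

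Over the whole Cd3 window, H3K27ac covered less in KO than in WT without overlap, but the difference did not pass once adjusted. The 4 KO libraries covered 20.6, 21.6, 21.2 and 24.2 kb, and the 4 WT libraries 32.4, 26.8, 26.2 and 24.8 kb. The means were 21.9 ± 1.6 kb in KO and 27.6 ± 3.3 kb in WT (SD, n = 4 each, two-sided exact permutation p = 0.0286, adjusted p = 0.229 over 8 such tests), and no p below 0.0286 is possible with 4 libraries on each side. A test at that floor can pass the adjustment only if most of the 8 tests reach it. Not passing therefore does not show that the groups were alike. The lowest WT and the highest KO library differed by little, and both were late. Per Mb of the list the genotypes also did not overlap (exact permutation p = 0.0286, adjusted p = 0.229). In the Cd5-Cd6 window H3K27ac covered 80.3 ± 7.3 kb in KO and 76.4 ± 2.2 kb in WT (SD, n = 4 each, two-sided exact permutation p = 0.314, adjusted p = 0.419). That difference of 3.9 kb was between 1.92 kb (without early KO replicate 1) and 7.38 kb (without late KO replicate 2) when 1 library was left out.

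**Figure D4:**
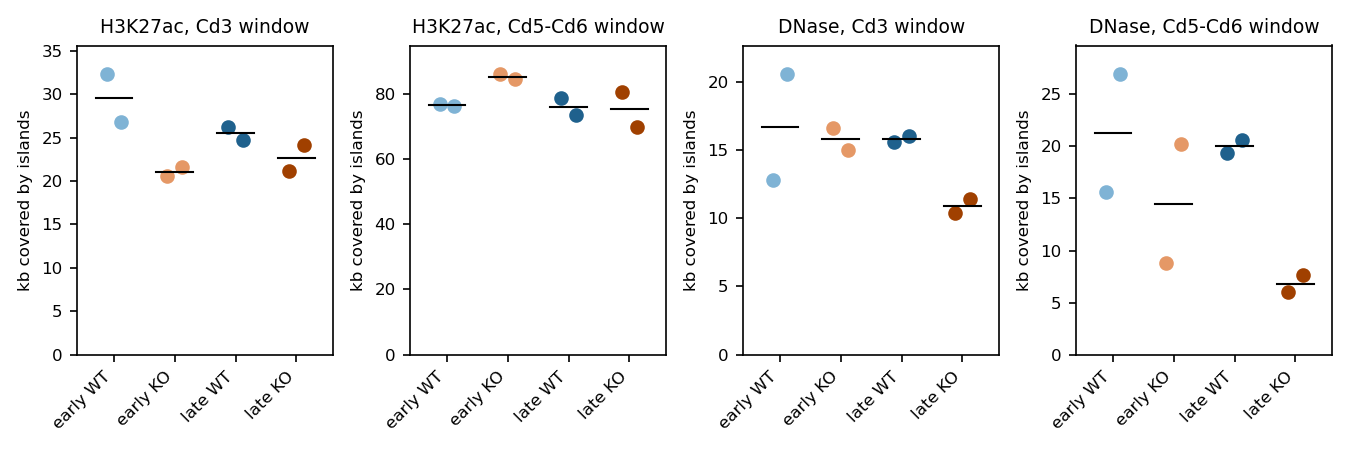
Kb covered by islands in each window, by group and assay. Points are libraries and lines are group means (n = 2). In the Cd3 window the 4 KO libraries lie between 20.6 and 24.2 kb of H3K27ac, below the 4 WT libraries, and late KO is lowest for DNase in both windows.

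DNase coverage of the windows did not pass in either comparison of genotypes. In the Cd5-Cd6 window it averaged 10.7 ± 6.5 kb in KO and 20.7 ± 4.7 kb in WT (SD, n = 4 each, two-sided exact permutation p = 0.0857, adjusted p = 0.343). Late KO covered 6.0 and 7.6 kb there and early KO replicate 1 covered 8.8 kb, while early KO replicate 2, with 20.2 kb, lay among the WT libraries, of which the lowest covered 15.6 kb. In the Cd3 window DNase averaged 13.4 ± 2.9 kb in KO and 16.3 ± 3.2 kb in WT (SD, n = 4 each, two-sided exact permutation p = 0.229, adjusted p = 0.366). That difference of -2.9 kb was between -1.45 kb (without early WT replicate 2) and -4.05 kb (without early WT replicate 1) when 1 library was left out. Divided by the Mb of each list, the Cd3 difference changed sign, to 0.417 ± 0.093 kb per Mb in KO and 0.310 ± 0.030 kb per Mb in WT (SD, n = 4 each, exact permutation p = 0.114, adjusted p = 0.305). None of the 4 comparisons of late with early libraries passed (adjusted p between 0.366 and 0.743). The limit given above for these permutation tests holds for all of them.

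Most open chromatin of the windows lay in acetylated chromatin. Of the DNase kb held by both replicates of a group, the share inside H3K27ac held by both replicates was 80.6% in early WT, 67.9% in early KO, 98.5% in late WT and 95.5% in late KO for the Cd3 window. Genome-wide the same share was 77.9%, 90.3%, 88.1% and 93.8%. Early KO was the only group in which the Cd3 share lay below the genome's, and the site at 44806201, open in both early KO libraries and without H3K27ac in both, is part of that difference. For the Cd5-Cd6 window the shares in the same order were 90.0%, 97.5%, all of it and 95.8%. Of the 21 DNase regions 14 touched H3K27ac in all 8 H3K27ac libraries, and 2, at 44822001 to 44825000 and 10875201 to 10876000, touched it in none. In reverse, only part of the acetylated length was open, 39.6% to 55.5% by group in the Cd3 window and 6.93% to 19.4% in the Cd5-Cd6 window, against 17.0% to 35.6% genome-wide.

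H3K27ac islands overlapped more on average between libraries in these windows than over the genome. Of the 200-bp steps covered in either of a pair, replicates shared 81.2% on average in the Cd3 and 81.4% in the Cd5-Cd6 window, against 75.2% genome-wide. KO and WT of a stage shared 69.2% in the Cd3 and 78.7% in the Cd5-Cd6 window (66.8% genome-wide). In the Cd3 window these pairs ran from 56.8% to 81.3%, a range that encloses the one over the genome (60.9% to 71.6%). For DNase, KO and WT of a stage shared 57.9% in the Cd3 and 36.7% in the Cd5-Cd6 window (41.6% genome-wide), and replicates 63.8% and 47.7% (49.99%). These shares are descriptions and were not tested.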

How the data were processed

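H3K27ac ChIP-seq and DNase-seq were measured in 8 libraries each. Reads were handled with CASAVA 2.18, Bowtie2 and SICER 1.1 on mm9, per the submitters' processing notes. The authors deposited 1 island list per library, with a score per island that was used here only to rank islands within a list. Depth is unknown. Groups came from the labels. The kb covered per 10-kb bin, as log2(kb + 0.5), in bins covered in at least 2 of 8 libraries and centred on bins covered in all 8, was fitted with limma 3.58.1 (R 4.3.3, trend) over all groups, with Benjamini-Hochberg adjustment over all bins. The fit was tested on simulated data. Windows were compared by exact permutation (Python 3.11.15, scipy 1.17.1). Values per library are given for bins called in any comparison, for regions missing from some libraries and for the top-scoring regions. The members and lists were chosen with earlier results of these data known. The genotype effect averaged over stages was added after the data were seen. The reference tables were on GRCm38.p6, so islands were not tied to single genes, and marker genes of other cell types and other T cell receptor pathway genes were not analysed here. The promoter of Cd6 was not used here.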

Additional observations from a re-analysis of the deposited data

Results flagged for a closer look

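The effect of the knockout on H3K27ac in the Cd3 window differed between the stages in the bin at 44820001 to 44830000 of chromosome 9 (mm9). It was the 1 bin called for this interaction of the 21 tested in the windows (4.76%), under the share of all bins (10.1%). Early WT held 2.2 and 1.6 kb and early KO 0 and 0 kb, while late WT held 1.6 and 1.6 kb and late KO 1.0 and 1.4 kb. The difference between the stage effects was 1.94 on the log2 scale of kb + 0.5 (SE 0.34, limma adjusted p = 0.017). That value depends on the pseudocount because early KO is at 0. With the upper 50% of each list by score the bin could not be tested, as its islands all stood at or under the 45.2 percentile. Over 13 alternatives the adjusted p ran from 0.00825 to 0.0643, and the call held in 7.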

How the results depend on the processing

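Of 215 alternative values for 16 bin results, 128 kept direction and call, 86 lost the call and 1 reversed; where a value moved, the cause was not tested. Counts of called H3K27ac bins moved as follows. Early KO against WT went from 3 to 1 with the upper 50% of each list, and that 1 was another bin, at 10910001. The count was 1 to 4 leaving out 1 library. Late KO against WT went from 0 to 1 with lists of equal length (0 to 1 leaving out 1 library). Late against early WT went from 2 to 4 without centring (0 to 3). Late against early KO had 3 (1 to 4). The interaction went from 1 to 0 with a pseudocount of 2 kb or the upper 50%, and to 2 with equal lengths (0 to 2). The averaged effect had 2 (2 to 4), but with the upper 50% these were other bins, at 44810001 and 10910001. For DNase, late KO against WT went from 2 to 0 with the larger pseudocount and to 1 with the upper 50% or equal lengths (0 to 2). Late against early WT went from 1 to 0 with the larger pseudocount, no filter or the upper 50% (0 to 2). With equal lengths the 1 bin called was another, at 44840001. Late against early KO went from 2 to 0 with the larger pseudocount or the upper 50% (0 to 1). Its highest count over the settings that kept all libraries was 3. The averaged effect went from 0 to 1 without centring (0 to 2). With the upper 50% the late KO change of the DNase bin at 10850001 reversed to 0.34 (adjusted p = 0.858). DNase regions in all 8 libraries went from 8 to 5 when 50% of a region had to be covered and to 4 with the upper 50%. The Cd3 window difference between late and early H3K27ac, -1.25 kb, reversed to 1.1 kb without early WT replicate 1 (-2.83 to 1.1 kb leaving out 1 library). The DNase differences of that window reversed per Mb of list, to 0.108 (KO against WT) and 0.0179 (late against early).

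The labels do not say that replicate numbers pair libraries, and deviations of same-numbered libraries correlated between -0.0381 and 0.0817 over 12 pairs of groups. With the replicate block, called H3K27ac bins went from 2 to 1 for late against early WT and from 3 to 1 for late against early KO. Called DNase bins went to 0 for late KO against WT, late against early WT and late against early KO.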
